A study of Mus musculus with 28 samples.

Results

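Many mouse genes first seen as cDNA clones still carry a RIKEN clone number as their name, and the prefix 1700 marks clones from adult testis. The genes described here are those whose array symbol starts with 1700 and ends with Rik, read from probe sets with 1 gene symbol and from the probe set of highest mean signal where a gene had several. A gene was a member if its mean deposited signal reached 200 in wild-type (WT) spermatocytes or in WT round spermatids. Of 200 such genes 159 (79.5%) were members, whereas 9373 of all 18193 genes on the array (51.5%) reached that level. The level was met in both cell types by 131 members, in round spermatids alone by 24 and in spermatocytes alone by 4. The members were thus selected on signal in WT spermatocytes and WT round spermatids, and their levels there are a description.

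The study hybridised testis RNA of adult C57BL/6 males to 28 single-colour expression arrays. Knockout (KO) mice were GRTH-/-, lacking Ddx25, which encodes the gonadotropin-regulated testicular RNA helicase (GRTH), and WT mice carried the intact gene. The groups were KO and WT total polysome RNA from sucrose gradients (3 arrays each), KO and WT round spermatids (3 each), KO and WT spermatocytes (4 each), KO and WT Leydig cell fractions (2 each), and WT polysome RNA immunoprecipitated (IP) with an antibody to GRTH or with IgG as its control (2 each). Cells were separated by centrifugal elutriation, and IP RNA alone went through a longer labelling procedure.

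Male germ cells pass from spermatocytes, which carry out meiosis, to haploid round spermatids and then to elongating spermatids, whose chromatin is compacted. Many transcripts made in round spermatids are stored as ribonucleoprotein and reach polysomes, the mRNAs loaded with ribosomes, only later. GRTH is a DEAD-box helicase of germ cells and Leydig cells that takes part in nuclear export, storage and translation of such mRNAs. Male mice without it are sterile. For most genes of the 1700 series no function has been assigned.

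Ddx25 signal averaged 822 ± 233 in KO and 16869 ± 3708 in WT polysome RNA (SD, n = 3 each), 4.87% of WT. In the cells it stood at 20.7% of WT in spermatocytes, 25.4% in round spermatids and 25.1% in the Leydig fraction. Where its probe set lies relative to the deletion is not known here, so the signal that remains checks the labels only by its direction. Of the arrays, 4 polysome columns were deposited unscaled (KO 1 and 2, WT 1 and 2) and all were rescaled alike. The free-text descriptions of IgG IP 1, KO polysome 1 and WT polysome 1 and 2 name another group than their titles, which were used. The labels do not tie replicates to separate animals, and the p-values may rest on technical spread alone. In bulk RNA, fewer cells of a type and less RNA per cell cannot be told apart.

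RefSeq lists 152 of the 159 members. By its classes 71 were protein coding, 73 were long non-coding RNAs (lncRNAs) and 8 were pseudogenes or other RNAs, while 7 were not found in the list. Some members thus have no protein product in the annotation, and "uncharacterised" holds for the name rather than for a class of RNA. Further, 69 members overlap another listed gene, and the values of those members may include the other transcript. Just inside the level lay 1700086D15Rik, 1700054O19Rik and 1700081H04Rik, with 200.8, 215.7 and 224.8 in WT round spermatids. Just outside it lay 1700020G03Rik, 1700066J03Rik and 1700040G22Rik, with 199.8, 198.7 and 190.5.

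Promoter windows (RefSeq, GRCm38.p6, 250 bases before to 50 after a gene's start) were on hand for 119 members, in 136 windows. They were searched on both strands for 8 short motifs, among them those of factors known from testis transcription: RFX factors, which bind the X-box, MYB factors, active in spermatocytes, and CREM, the cAMP-responsive factor of round spermatids. The 10-letter X-box stretch, GTTGCC followed directly by ATGG, was present in 7 of 119 members (5.88%), compared with 1.04% of genes at the same level and 0.633% of all genes in the promoter table. Its shorter core GTTGCC, which every 10-letter match contains, was present in 24.4% of members, 16.7% of genes at the level and 14.1% of all. The MYB letters CNGTTA were found in 36.1% of members, 24.1% of genes at the level and 25.9% of all. The GC box GGGCGG was present in 26.9% of members, 64.7% of genes at the level and 38.2% of all. The cAMP response element TGACGTCA was found in 1 member (0.840%), 3.99% of genes at the level and 2.03% of all, and its 5-letter part TGACG in 25.2% of members, 36.6% and 23.1%. TATAAA was present in 8.40% of members (8.39% at the level, 15.7% of all) and CCAAT in 40.3% (44.0% and 41.1%). Windows were also on hand for 194 genes at the level whose names come from other RIKEN testis clone series. Among these the shares were 2.06% for the X-box stretch, 18.0% for GTTGCC, 30.9% for CNGTTA and 25.8% for GGGCGG. They were 3.61% for TGACGTCA, 17.5% for TGACG, 10.3% for TATAAA and 37.6% for CCAAT. A match here is a run of letters and was not tested as a binding site.

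The windows of 2 members with the X-box stretch are given first, 1 from a gene high in round spermatids and 1 from a gene bright in both cell types. They are followed by those of the tested member with the largest polysome fall, of the tested lncRNA with the largest polysome fall, and of the lncRNA most strongly tilted to spermatocytes. Each is written 5′ to 3′ on the gene's strand, with every match to any of the 8 motifs in capitals.
1700001K19Rik, chr12:110682570-110682869, minus strand: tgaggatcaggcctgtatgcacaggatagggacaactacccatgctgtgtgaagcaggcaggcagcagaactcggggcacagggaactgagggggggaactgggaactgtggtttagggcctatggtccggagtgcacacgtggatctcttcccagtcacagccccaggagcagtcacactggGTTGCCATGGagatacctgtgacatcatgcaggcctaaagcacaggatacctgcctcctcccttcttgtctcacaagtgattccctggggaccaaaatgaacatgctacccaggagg
1700010I14Rik, chr17:8988083-8988382, plus strand: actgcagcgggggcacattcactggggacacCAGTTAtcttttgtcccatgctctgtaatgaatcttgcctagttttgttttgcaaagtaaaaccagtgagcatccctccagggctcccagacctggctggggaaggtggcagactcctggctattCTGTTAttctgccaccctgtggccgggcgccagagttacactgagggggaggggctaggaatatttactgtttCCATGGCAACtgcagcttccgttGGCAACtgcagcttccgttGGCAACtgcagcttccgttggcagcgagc
1700042G07Rik, chr4:116173122-116173421, plus strand: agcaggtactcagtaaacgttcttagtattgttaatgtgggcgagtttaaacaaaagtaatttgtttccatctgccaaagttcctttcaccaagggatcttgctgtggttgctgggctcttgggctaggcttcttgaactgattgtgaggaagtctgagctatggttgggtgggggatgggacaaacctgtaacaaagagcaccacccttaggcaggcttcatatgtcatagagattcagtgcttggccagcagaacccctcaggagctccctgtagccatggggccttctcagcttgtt
1700009J07Rik, chr10:77893170-77893469, plus strand: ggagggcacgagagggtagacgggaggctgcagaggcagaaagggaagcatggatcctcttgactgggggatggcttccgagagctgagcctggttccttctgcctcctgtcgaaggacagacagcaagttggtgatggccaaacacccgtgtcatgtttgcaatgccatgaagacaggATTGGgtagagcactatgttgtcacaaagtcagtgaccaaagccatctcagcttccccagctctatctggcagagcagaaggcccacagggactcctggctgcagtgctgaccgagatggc
1700029M20Rik, chr4:135626405-135626704, plus strand: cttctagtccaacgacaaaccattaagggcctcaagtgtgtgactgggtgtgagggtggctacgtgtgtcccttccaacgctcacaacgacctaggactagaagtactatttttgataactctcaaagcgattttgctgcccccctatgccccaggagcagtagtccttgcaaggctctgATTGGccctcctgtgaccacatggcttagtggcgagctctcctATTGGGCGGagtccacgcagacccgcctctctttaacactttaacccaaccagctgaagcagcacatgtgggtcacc
In the first window the X-box stretch begins 67 bases before the start, in the second it lies on the opposite strand 21 bases before it. None of the searched motifs occurs in the third, the fourth holds 1 CCAAT match on the opposite strand, and the fifth holds GGGCGG joined to 1 of its 2 CCAAT matches.

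In each of the 4 sources the members' median signal was lower in KO than in WT, for coding members and lncRNAs alike. WT spermatocyte and WT round spermatid signals chose the members, which favours lower KO medians in these cells, and no test is given. The 15 members of other classes had medians of 796 in KO and 769 in WT spermatocytes, and were lower in KO in the other sources. The median of the coding members' mean signals was 1363 in KO and 3225 in WT polysome RNA, 4711 in KO and 8235 in WT round spermatids, 1720 in KO and 2392 in WT spermatocytes, and 2704 in KO and 4566 in WT Leydig fractions. For lncRNA members these medians were 163 and 353 in KO and WT polysome RNA, 680 and 1473 in KO and WT round spermatids, 353 and 513 in KO and WT spermatocytes, and 496 and 912 in KO and WT Leydig fractions. Signals of different probe sets depend on the probes as well as on RNA, so these medians compare KO with WT within a class, not one class with the other.

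**Figure D1:**
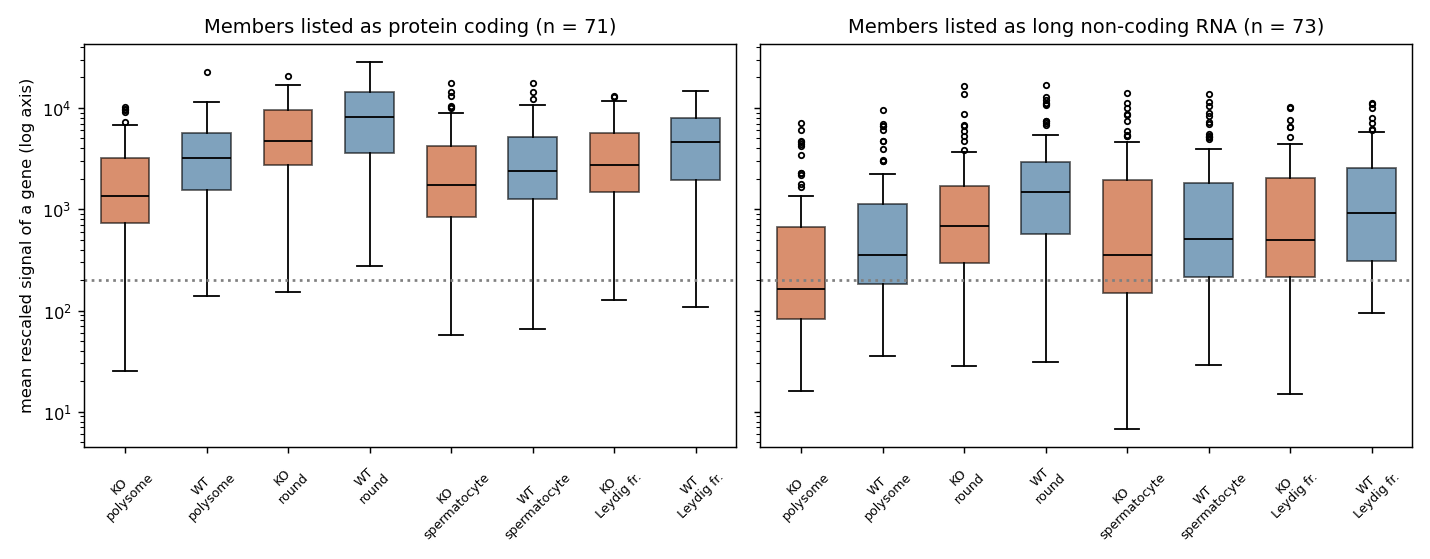
Mean rescaled signal of each member (log axis) in 8 groups, for 71 coding members (left) and 73 lncRNA members (right). Boxes span the quartiles with the median as a line, whiskers reach 1.5 box heights, circles are members beyond them, and the dotted line marks 200. The KO box lies left of its WT box and has the lower median in each pair. In round spermatids and spermatocytes the choice of members by WT signal favours this.

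Among members with the brightest probe sets in WT round spermatids, 1700009N14Rik had 15313, 13808 and 13235 in KO round spermatids and 32487, 28939 and 23280 in WT ones. 1700074P13Rik, whose synonym Tryx5 places it among trypsin-like genes, had 23511, 20631 and 18202 in KO and 32109, 28645 and 21220 in WT round spermatids. 1700029H14Rik, 1700003F12Rik, 1700019D03Rik (smAKAP, a membrane anchor of protein kinase A) and 1700113H08Rik followed. 1700019M22Rik and 1700123L14Rik, both listed as pseudogenes, were also among the 8 brightest. In WT spermatocytes the brightest were 1700123L14Rik, 1700018B24Rik, 1700010I14Rik, 1700074P13Rik, 1700028J19Rik and 1700020D05Rik. 1700010I14Rik shows how flat some of these were: its signal lay between 16007 and 18316 in KO and between 14940.2 and 16921 in WT round spermatids, and between 15918 and 19459 in KO and between 15642 and 19490 in WT spermatocytes.

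In WT cells, most members were higher in round spermatids. On the scale log2(signal + 16), on which all differences below are given, 96 of 159 members were at least 2-fold higher in WT round spermatids, 14 were at least 2-fold higher in WT spermatocytes and 49 lay between. The median difference was 1.67, with a range of -3.57 to 3.59. Of the 71 coding members 49 were at least 2-fold higher in round spermatids and 5 in spermatocytes, against 38 and 9 of the 73 lncRNA members. Of all 9373 genes at the level, 22.3% were at least 2-fold higher in WT round spermatids and 25.5% in WT spermatocytes, with a median of -0.22; among the 9097 genes tested across the array 20.3% and 25% were. These arrays chose the members, so no test is given.

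The KO arrays took no part in that choice. KO round spermatids were compared with KO spermatocytes by limma, as were all groups below, over the 9097 genes at or above the median signal of the arrays compared, with Benjamini-Hochberg adjustment and a threshold of 0.05. Of the 140 members tested, 96 were higher in KO round spermatids and 31 were higher in KO spermatocytes, while 38.8% and 46.5% of all genes tested were. The members' median difference was 1.40, against -0.10 for all genes. Of these members, 79 differed by at least 2-fold towards round spermatids (19.6% of all genes) and 18 towards spermatocytes (18.4%). Among the 127 members bright enough in both cell types alone to pass the signal filter, 86 were higher and 28 lower, with a median of 1.43.

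The classes differed in this balance. Of the 70 coding members tested 57 were higher and 7 lower in KO round spermatids, with a median of 1.78. Of the 57 lncRNA members tested 30 were higher and 23 lower, with a median of 0.33. Of the 256 genes at the level whose names come from other RIKEN testis clone series, 209 were tested, 125 were higher and 66 lower, and the median was 0.83. The difference between the classes was not itself tested.

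At the round spermatid end stood 1700009J07Rik, an lncRNA. It had 1370, 1428 and 1378 in KO round spermatids against 133, 145, 181 and 209.7 in KO spermatocytes, a difference of 2.96 ± 0.13 (SE, adjusted p = 6.06e-08 by limma). The coding gene 1700042G07Rik, also known as P3r3urf, had 3548, 3414 and 3508 in KO round spermatids and 478, 382, 478 and 598 in KO spermatocytes. Its difference was 2.83 ± 0.13. No array of one cell type reached the other for either gene. 1700001L19Rik (2.56 ± 0.08), 1700015G11Rik (Ccdc179, named for a coiled coil, 2.53 ± 0.10), 1700001K19Rik (2.51 ± 0.08) and 1700016C15Rik (2.47 ± 0.10) came next.

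Members at the spermatocyte end were as sharply separated. 1700029M20Rik, an lncRNA, had 855, 851 and 1049 in KO round spermatids and 11405, 11133, 11638 and 10827 in KO spermatocytes. The difference was -3.60 ± 0.08 (limma adjusted p = 4.11e-09). The coding 1700006A11Rik had 413, 433 and 443 in KO round spermatids against 5251, 5084, 5393 and 5181 in KO spermatocytes, a difference of -3.56 ± 0.05. 1700040D17Rik (-3.47 ± 0.09), 1700100I10Rik (-3.29 ± 0.10) and 1700020N01Rik (-1.99 ± 0.06) are lncRNAs as well. 1700102P08Rik (-2.35 ± 0.07), which overlaps the listed meiotic gene Iho1, is coding. Of the 6 members with the largest difference towards spermatocytes 4 were lncRNAs, and of the 6 with the largest difference towards round spermatids 5 were coding.

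Total polysome RNA of KO testes held less of many members and more of none that passed the test. Of the 110 members tested 40 fell and 0 rose, while 5.77% of all genes tested fell and 0.572% rose. The members' median difference was -0.60 against 0.13 for all genes, and 96 of 110 lay below 0. In 43 members the fall was at least 2-fold, which 5.86% of all genes reached. Every KO array lay below every WT array in 62 of the 110 members, the 40 that fell among them, and in 12.8% of all genes tested; in all 525 genes that fell the groups did not overlap. Centring each array on its median moved the all-gene median from 0.13 to -0.04, and relative to that of all genes the members' median was -0.73 under either scaling. At an unadjusted p under 0.05 stood 54 members, against 19.2% of all genes tested.

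The signal filter bears on this count. For polysome RNA 98 members were above it in KO and WT alike, and of these 33 fell and 0 rose, with a median of -0.57. A further 11 passed through their WT signal alone and 1 through its KO signal alone. For such members a fall is favoured by the filter, and 7 of the 11 fell, among them 1700009J07Rik, 1700015G11Rik and 1700020A23Rik below. Another 49 members were too dim in polysome RNA to be tested. The dim ones were mostly lncRNAs, of which 39 of 73 were not tested, against 4 of 71 coding members. Of those tested 28 of 67 coding members fell, 9 of 34 lncRNAs and 3 of 9 others. Of the other RIKEN testis clone genes 117 were tested, 24 fell and 1 rose, with a median of -0.33. With the replicate number as a block, the fit gave 58 members that fell and 1 that rose, the lncRNA 1700012D14Rik, while 11.8% of all genes fell and 12.9% rose.

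**Figure D2:**
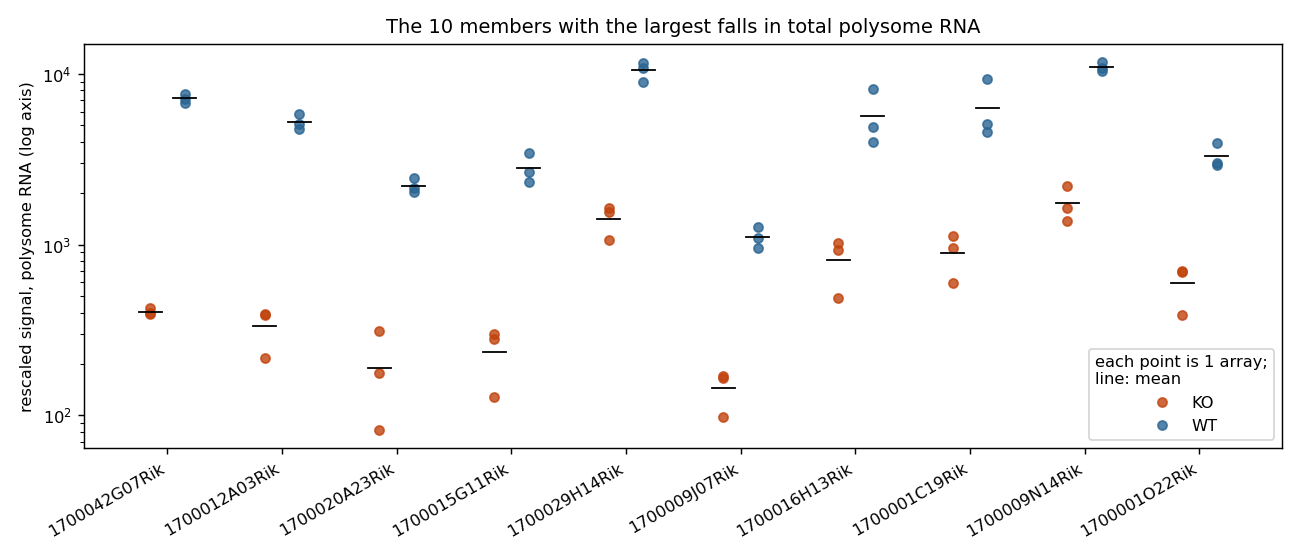
Rescaled signal in total polysome RNA (log axis) of the 10 tested members with the largest falls, with each array as a point (3 KO, left, and 3 WT, right, for each gene) and the group mean as a line. For 1700042G07Rik the KO arrays lie between 393 and 426 and the WT arrays between 6786 and 7614, and in none of the 10 do the groups overlap.

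1700042G07Rik showed the largest fall in polysome RNA among the 110 members tested. It had 398, 393 and 426 in KO and 6786, 7614 and 7151 in WT polysome RNA, a difference of -4.09 ± 0.19 (limma adjusted p = 3.5e-05). The coding gene 1700012A03Rik had 395, 388 and 217 in KO and 4745, 5852 and 5102 in WT polysome RNA, and differed by -3.95 ± 0.26 (adjusted p = 0.000237). For both genes every KO array lay far below every WT array.

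1700020A23Rik had 177, 311 and 82.3 in KO and 2020, 2454 and 2147 in WT polysome RNA, a difference of -3.59 ± 0.38. 1700015G11Rik had 281, 299 and 129 in KO against 2333, 2663 and 3437 in WT polysome RNA, a difference of -3.55 ± 0.32. The third KO array was the lowest of its group for both, as for 9 of the 10 genes. 1700029H14Rik had 1552, 1627 and 1062 in KO and 8919, 10856 and 11593 in WT polysome RNA (-2.89 ± 0.24).

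The lncRNA 1700009J07Rik had 165, 170 and 97.5 in KO and 959, 1100 and 1271 in WT polysome RNA, a difference of -2.84 ± 0.25 (limma adjusted p = 0.000413). It was the only lncRNA among the 10. 1700016H13Rik (-2.78 ± 0.35), 1700001C19Rik (-2.78 ± 0.33), 1700009N14Rik (-2.66 ± 0.23) and 1700001O22Rik (-2.48 ± 0.28) completed them. 1700001C19Rik overlaps Guca1a, a gene of photoreceptor calcium sensing, so its values carry that doubt. Its other probe set was not tested in polysome RNA. On that probe set KO differed from WT by -0.001 ± 0.098 in spermatocytes and -0.57 ± 0.08 in round spermatids. On the brightest probe set these differences were -0.99 and -1.45.

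In the other direction the 5 members of smallest p did not pass. The lncRNA 1700012D14Rik had 422, 340 and 468 in KO and 272, 157 and 434 in WT polysome RNA, a difference of 0.58 ± 0.33 (adjusted p = 0.379 by limma, 0.0417 with the replicate block). The groups overlap, and without the arrays whose descriptions conflict the difference was -0.12. 1700037H04Rik (0.37 ± 0.26), 1700029P11Rik (0.34 ± 0.23), 1700017B05Rik (0.24 ± 0.22) and 1700018L02Rik (0.24 ± 0.29, -0.06 without WT array 1) likewise did not pass.

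Stage and polysome behaviour were read from separate arrays and ran together. Of the 96 members higher in KO round spermatids than in KO spermatocytes, 75 were tested in polysome RNA and 40 of these fell (53.3%), with a median of -1.19. Among all genes with that stage pattern 508 of 2981 fell (17.04%), with a median of -0.15. Of the 31 members higher in KO spermatocytes 25 were tested and 0 fell, with a median of -0.10, against 6 of all 3896 such genes. Of the 13 members that passed in neither direction 10 were tested in polysome RNA and 0 fell, against 8 of all 1182 such genes. All 40 members that fell in polysome RNA were thus higher in KO round spermatids, as were 508 of all 525 genes that fell. Across 110 members the difference between KO cell types and the KO difference in polysome RNA had Pearson's r = -0.644 and Spearman's rho = -0.754, and across all 8059 genes tested in both -0.495 and -0.392. These are correlations across genes, which share arrays and are not independent replicates.

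**Figure D3:**
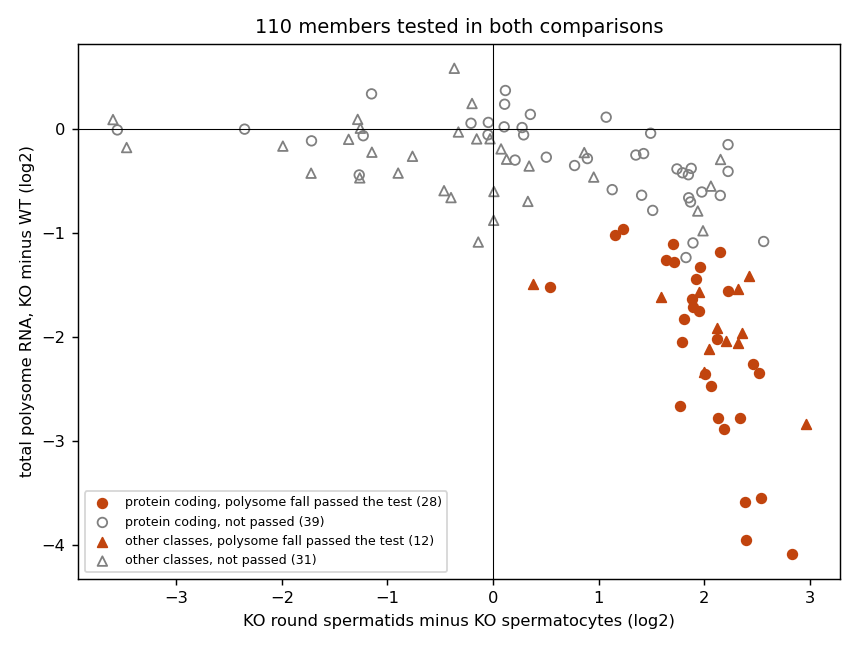
Each point is 1 of the 110 members tested in both: the x axis is the log2 difference of KO round spermatids minus KO spermatocytes and the y axis the log2 difference of KO minus WT total polysome RNA. Circles are coding members and triangles other classes, filled where the polysome fall passed. The falls lie at the right, where 40 of 75 members higher in KO round spermatids fell, against 17.04% of all such genes. At the left 0 of 25 members higher in KO spermatocytes fell, against 6 of all 3896 such genes.

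Markers of elongating spermatids moved with the polysome falls. All 16 of 16 listed markers fell in KO polysome RNA, with a median of -2.87, and their summed signal lay between 37769 and 67296 in KO and between 267851 and 514649 in WT arrays. Of 11 round spermatid markers 1 fell, with a median of -0.61, and their sum lay between 41059 and 47380 in KO and between 54807 and 74769 in WT arrays. None of 14 spermatocyte markers passed, with a median of 0.20. No marker of these 3 lists had a group mean under 50. None of 7 Leydig cell, 9 Sertoli cell, 5 macrophage and 4 spermatogonia markers tested passed either, with medians of 0.95, 0.56, 0.50 and 0.55. The part of cell makeup in the members' falls was not tested.

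In WT testes, members were also lower in polysome RNA than in round spermatids, both on their own scaled arrays. The median of WT polysome RNA minus WT round spermatids was -1.40 over 159 members, of which 14 lay above 0, compared with 0.05 over all genes at the level. For coding members it was -1.20, against 0.11 over all 8841 coding genes at the level. For lncRNA members it was -1.52, against -1.33 over all 426 lncRNAs at the level. The polysome RNA came from whole testis, so the ratio is no measure of loading within a cell type, and WT round spermatids chose members, so no test is given.

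In round spermatids the KO difference was counted over the 135 members that reached the level through WT spermatocytes, since WT round spermatid signal would otherwise have chosen them. Of the 131 tested 87 fell and 9 rose in KO round spermatids, while 22.4% of all genes fell and 41% rose. The median was -0.44 against 0.15 for all genes. In 25 members the fall was at least 2-fold, as in 4.08% of all genes. Of the 68 coding members tested 43 fell, and of 51 lncRNAs 36. With the spread estimated over all 28 arrays together, 52 fell and 4 rose, against 10.3% and 15.3% of all genes.

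Several of the members with large polysome falls also stood out here. 1700012A03Rik had 2147, 2167 and 2237 in KO and 11629, 10685 and 10216 in WT round spermatids (-2.30 ± 0.07, limma adjusted p = 1.93e-06). The lncRNA 1700009J07Rik fell by 2.39 ± 0.06 and 1700020A23Rik by 2.38 ± 0.07 on the log2 scale. The coding gene 1700008P02Rik had 561, 621 and 669.8 in KO and 4814, 4742 and 4846 in WT round spermatids, a difference of -2.93 ± 0.08. Its polysome signal was 49.5, 5.63 and 20.2 in KO and 816, 1628 and 527 in WT, below the filter. With the KO signal set at the filter's level of 277, it was at least 3.09-fold lower in KO polysome RNA, and no test is given.

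1700063D05Rik, an lncRNA, read close to the bottom of the scale in every KO array. It had 27.7, 33.1 and 24.02 in KO and 2280, 2301 and 2468 in WT round spermatids. It passed the filter there through its WT signal alone and fell (limma adjusted p = 7.97e-08). The files hold no detection calls, so its KO signals are taken as a bound: set at the filter's level of 162, KO round spermatids were at least 13.3-fold lower. In spermatocytes it had 3.20, 3.49, 11.3 and 9.21 in KO and 352, 413, 454 and 449.5 in WT, and in Leydig fractions 16.8 and 13.4 in KO and 1065 and 1022 in WT. Polysome RNA held 15.8, 2.27 and 34.9 in KO and 585, 382 and 578 in WT. The KO signal was under 35 on every array and the groups did not overlap in any source. Outside round spermatids the gene was under the signal filter and is given with no test. Bounded in the same way, it was at least 2.60-fold lower in KO spermatocytes, at least 4.75-fold lower in KO Leydig fractions and at least 1.78-fold lower in KO polysome RNA.

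Like Ddx25 this gene lies on chromosome 9, with 218 listed genes between them. A further 6 members lie on that chromosome. The nearest of them to Ddx25 was 1700110K17Rik, with 200 listed genes between, which differed by -1.32 in round spermatids, and the others ranged from -0.41 to 0.68. Whether a gene's place on the chromosome bears on its KO difference was not tested.

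In spermatocytes the KO difference was counted over the 155 members that reached the level through WT round spermatids. Of the 133 tested 80 fell and 6 rose in KO spermatocytes, while 17.8% of all genes fell and 19.6% rose. The falls were smaller, with a median of -0.28 against 0.03 for all genes, and 12 members fell at least 2-fold, as did 0.879% of all genes. Of 69 coding members 44 fell, and of 52 lncRNAs 29. The count depended on how the spread was estimated. It was 54 falls and 3 rises when the closely alike arrays 1 and 2, and 3 and 4, were averaged first, against 8.46% and 5.03% of all genes. With all 28 arrays in 1 fit 32 fell and 2 rose, against 3.72% and 1.18%, and with the replicate block 86 fell and 11 rose, against 22% and 27.5%.

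Of the 133 members tested 1700009J07Rik fell furthest, with 133, 145, 181 and 209.7 in KO and 715, 701, 646 and 732 in WT spermatocytes (-1.98 ± 0.12, limma adjusted p = 2.82e-06). 1700008P02Rik (-1.77 ± 0.06, above the filter in WT alone), 1700012A03Rik (-1.73 ± 0.06), 1700016H13Rik (-1.64 ± 0.05) and 1700042G07Rik (-1.56 ± 0.14) followed. All 5 were among the members higher in KO round spermatids than in KO spermatocytes. Both differences use the same KO spermatocyte arrays, and a low signal there favours both. Elongating spermatid markers moved with these members in the purified fractions too: 15 of 16 fell in KO spermatocytes and 16 of 16 in KO round spermatids. All 16 were also higher in KO round spermatids than in KO spermatocytes, with a median of 1.88, against 38.8% of all genes. No share of elongating cells is therefore read from these markers. Their sum lay between 90247 and 99320 in KO and between 151974 and 183319 in WT spermatocytes. In round spermatids it lay between 251603 and 311301 in KO and between 413846 and 566317 in WT. Of 11 round spermatid markers 10 fell in KO spermatocytes, where their sum was 30415 to 31963 in KO and 39894 to 40672 in WT. In KO round spermatids 7 of these 11 fell and 1 rose, with a median of -0.44. Their sum there was 89599 to 96044 in KO and 114933 to 133236 in WT.

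Markers of other cells moved as well. In KO spermatocytes 6 of 7 Leydig cell markers rose, with a median of 0.43 and sums of 9082 to 9995 in KO and 6727 to 7296 in WT. In KO round spermatids 8 of 14 spermatocyte markers rose, with sums of 42095 to 43012 in KO and 32020 to 32829 in WT, and so did 4 of 5 spermatogonia markers tested, with sums of 5060 to 5476 in KO and 3283 to 3639 in WT. All 4 Sertoli cell markers tested there fell, with sums of 1843 to 1961 in KO and 3257 to 3529 in WT, and 3 of the 12 listed had a mean under 50 in each. Both Leydig cell markers tested there rose. The part of these cells in the members' differences was not tested.

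A few members rose. 1700080O16Rik, a coding gene on chromosome X, had 1048, 1336, 1178 and 1122 in KO and 649.8, 720.2, 593 and 629 in WT spermatocytes, a rise of 0.84 ± 0.08 (limma adjusted p = 6.28e-05). In round spermatids it had 5716, 5720 and 5124 in KO and 3369, 3826 and 3512 in WT (0.63 ± 0.08, adjusted p = 0.000401). No KO array overlapped a WT array in either cell type. In polysome RNA it had 505, 465 and 341 in KO and 550.5, 534 and 655 in WT (-0.41 ± 0.22, adjusted p = 0.351).

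1700017B05Rik rose by 0.52 ± 0.05 in spermatocytes and 0.68 ± 0.07 in round spermatids on its brightest probe set, but with all its probe sets averaged the differences were 0.01 and -0.05, so the direction rests on 1 probe set. 1700003E16Rik, which overlaps Wdr54, had 9429, 8094 and 10804 in KO and 6182, 5986 and 5470 in WT round spermatids (0.67 ± 0.11, limma adjusted p = 0.00144, or 0.0906 with all 28 arrays in 1 fit). In the Leydig fraction it had 1867 and 1897 in KO and 4606 and 4525 in WT (-1.27 ± 0.02). 1700102P08Rik (0.62 ± 0.07) and 1700018F24Rik (0.59 ± 0.10) rose in round spermatids, and in spermatocytes 1700126A01Rik (0.39 ± 0.06, 0.03 with its probe sets averaged), 1700110I01Rik (0.25 ± 0.07) and 1700016A09Rik (0.19 ± 0.05) did. With closely alike arrays averaged first, 1700110I01Rik and 1700016A09Rik lost the call (limma adjusted p = 0.162 and 0.197), as they did with centred arrays, no filter and 1 fit of all arrays, and 1700126A01Rik also lost it in that 1 fit (0.0994).

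**Figure D4:**
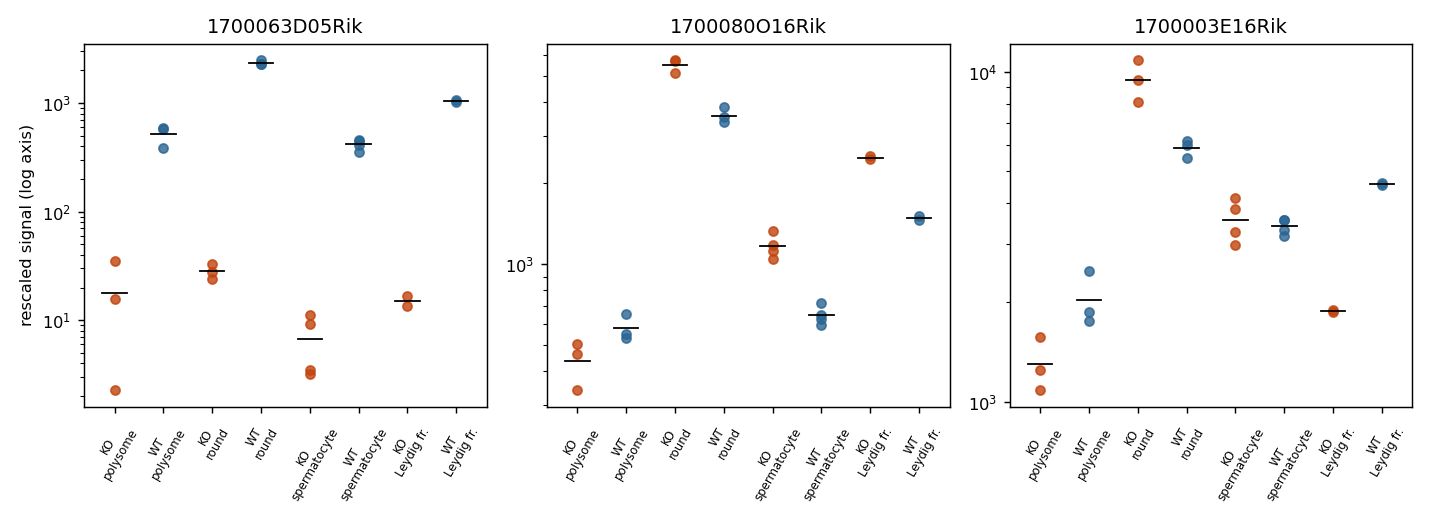
Rescaled signal (log axis) of 3 members in KO (orange, left of each pair) and WT samples (blue) of 4 sources, with each point 1 array and the line the group mean. 1700063D05Rik is under 35 in every KO array and at least 352 in every WT array, 1700080O16Rik is higher in KO cells of every kind but not in polysome RNA, and 1700003E16Rik is higher in KO round spermatids and lower in the KO Leydig fraction.

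**Figure D5:**
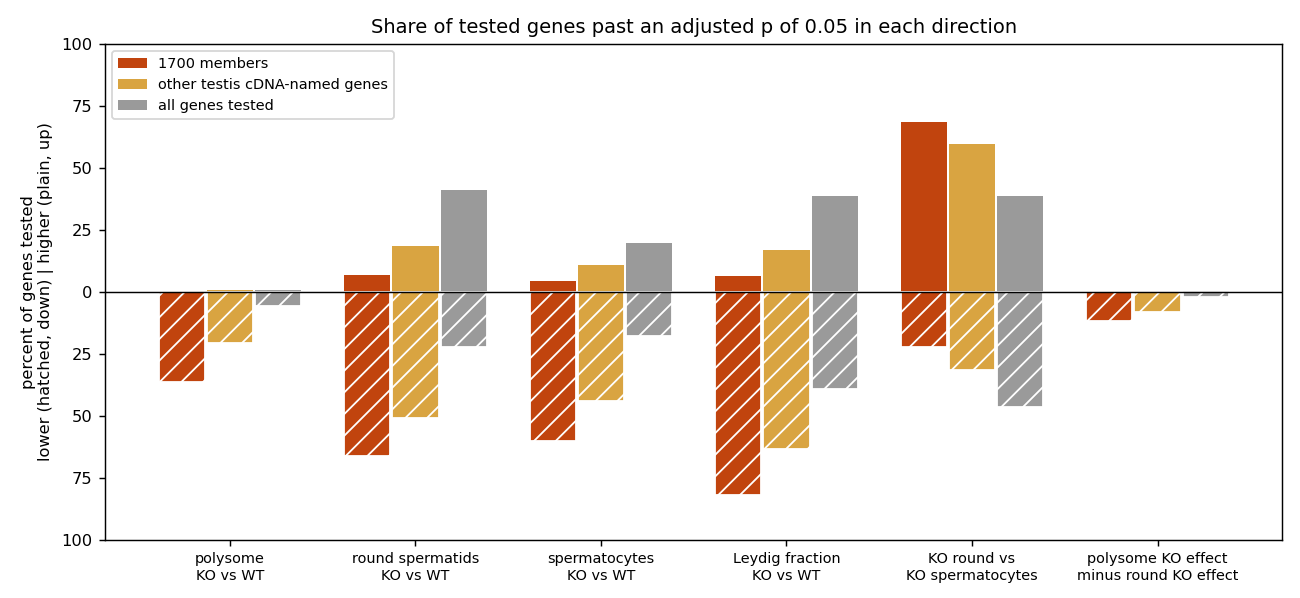
Percent of tested genes that were higher (plain bars, upwards) or lower (hatched bars, downwards) at a limma adjusted p under 0.05 in 6 comparisons, for the members (red), the other RIKEN testis clone genes (yellow) and all 9097 genes (grey). In polysome RNA 40 of 110 members fell and 0 rose, against 5.77% and 0.572% of all genes.

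Whether the polysome fall of a member went beyond its fall in round spermatids was tested as the KO effect in polysome RNA minus that in round spermatids. Of the 127 members tested, of 135, this difference was negative in 15 and positive in 0, while 2.25% and 0.539% of all genes passed in those directions. The median was -0.35 against -0.14 for all genes, a difference of -0.20. 1700042G07Rik had the most negative value, -2.03 ± 0.16 (limma adjusted p = 0.000103), its KO effect being -4.09 in polysome RNA and -2.06 in round spermatids. 1700009N14Rik differed by -1.67 ± 0.26, with effects of -2.66 and -0.99.

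The lncRNA 1700027F06Rik combined a polysome fall with a much smaller fall in round spermatids. It had 817, 817 and 509 in KO and 2844, 3119 and 2928 in WT polysome RNA (-2.06 ± 0.24). In round spermatids it had 3399, 3475 and 3513 in KO and 3887, 3868 and 3958 in WT, a fall that passed (-0.17 ± 0.06, limma adjusted p = 0.0348). The difference of the effects was -1.89 ± 0.24 (limma adjusted p = 0.00318). 1700074P13Rik was similar among coding members, with -1.52 ± 0.22 in polysome RNA, -0.38 ± 0.16 in round spermatids, which did not pass (adjusted p = 0.0743), and -1.14 ± 0.28 between them (adjusted p = 0.0476). In 1700003E16Rik and 1700080O16Rik the difference came with a rise in round spermatids, and neither passed in polysome RNA. Of 16 elongating spermatid markers 11 had a negative difference that passed, with a median of -1.85, and their part in the members' values was not tested.

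These 15 calls depended on the arrays and settings. The replicate block gave 29 negative and 2 positive, while 11.4% and 4.03% of all genes were. Leaving out any 1 of the 6 round spermatid arrays gave 7 or 8 negative, and averaging round spermatid arrays 1 and 2 first left 1, against 0.055% of all genes. Without the polysome arrays of conflicting description 36 were negative and 2 positive, against 12.9% and 5.46% of all genes. 1700029M20Rik (0.85 ± 0.23) and 1700097N02Rik (0.84 ± 0.25) had the largest positive differences and did not pass (limma adjusted p = 0.066 and 0.0922). Each passed in some other settings, with the block among them (0.0197 and 0.00993).

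In the Leydig cell fraction 139 members were tested, of which 114 fell and 9 rose in KO, while 39.3% of all genes fell and 38.6% rose. The median was -0.39 against -0.01 for all genes, and 19 members fell at least 2-fold, as did 1.97% of all genes. The 2 arrays of each genotype were closely alike, with an SD of log2 differences over members of 0.0899 in KO and 0.0718 in WT. With all 28 arrays in 1 fit 24 fell and 1 rose, against 3.43% and 5.82% of all genes. 1700008P02Rik had 331 and 312 in KO and 1893 and 1924 in WT fractions (-2.51 ± 0.04), 1700020A23Rik fell by 2.11 ± 0.06 and 1700009J07Rik by 2.00 ± 0.02. 1700080O16Rik (0.74 ± 0.03), 1700122O11Rik (0.44 ± 0.11) and 1700017B05Rik (0.36 ± 0.02, -0.004 with its probe sets averaged) had the largest rises. 1700122O11Rik lost the call in 6 of 14 alternatives: its difference was 0.17 with quantile normalization (limma adjusted p = 0.214), 0.26 with centred arrays (0.0736), 0.31 without WT fraction 2 (0.0558) and 0.35 without KO fraction 1 (0.0959), and the adjusted p was 0.0752 with no filter and 0.562 in 1 fit of all arrays. That 1 fit also ended the call of 1700017B05Rik (0.205).

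The fraction also held germ cell RNA. Elongating spermatid markers summed to between 149588 and 152251 in KO and between 234679 and 237540 in WT fractions, and all 16 fell. Of 11 round spermatid markers 9 fell, with sums of 49084 to 49444 in KO and 61184 to 62055 in WT. Leydig cell markers, 7 of 10 of which were on the array, all rose, with sums of 62429 to 63341 in KO and 33338 to 33408 in WT, and 7 of 7 macrophage markers tested rose as well. Among Leydig markers none had a mean under 50. The part of these cells in the members' values was not tested.

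Between GRTH IP and IgG IP no member passed the test. Of 139 members tested 0 passed in either direction by limma, as for all genes (0%), and 4 members had an unadjusted p under 0.05, against 4% of all genes. The median difference was -0.05 against -0.02 for all genes. Its sign rested on single arrays: without IgG IP 1 it was 0.42, without IgG IP 2 -0.38 and without GRTH IP 2 0.01. It was also above 0 with quantile normalization (0.04) and averaged probe sets (0.05), and -0.44 with centred arrays, where that of all genes was -0.41. 1700024J04Rik had 3399 and 4766 in GRTH IP and 591 and 978 in IgG IP arrays, a difference of 2.38 ± 0.60 (limma adjusted p = 0.977). 1700037C18Rik, which overlaps Cluap1, had 199.6 and 551 in GRTH IP and 1796 and 1417 in IgG IP arrays (-2.20 ± 0.65, limma adjusted p = 0.977). On another probe set its difference was -0.77 ± 0.82. The groups do not overlap for 1700024J04Rik or for 1700037C18Rik. With the replicate number as a block both passed (limma adjusted p = 0.00813 and 0.0191), as 1 member up and 1 down. Of all 9097 genes 23 were higher and 42 lower in that fit. With all 28 arrays in 1 fit, which pools the spread of all groups, 18 members passed upwards and 20 downwards, against 12.1% and 15.7% of all genes.

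The 2 arrays of a group were far apart, with an SD of log2 differences over members of 0.999 in GRTH IP and 0.917 in IgG IP. Data were simulated on this comparison with independent arrays. The test then recovered 0 of 100 genes changed by 1 and 0 of 100 changed by 2 on the log2 scale. The fit of these 4 arrays without a block thus had little power for differences of that size. 1700042G07Rik had 31429 and 10487 in GRTH IP and 36442 and 11269 in IgG IP arrays (-0.16 ± 0.76, adjusted p = 0.993). Among the rest, 1700067K01Rik (-1.85 ± 0.59), 1700034J05Rik (-1.36 ± 0.58), 1700066M21Rik (1.24 ± 0.60, 0.02 on another probe set) and 1700110I01Rik (1.21 ± 0.60) had the next smallest p. None passed in the fit of the 4 IP arrays, whereas all 4 genes passed in the 1 fit of all 28 arrays. The latter pools the spread of all groups, and outside the IPs the SD over members between 2 arrays of a group was at most 0.686.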

How the data were processed

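RNA from KO and WT testis polysomes, germ cells, Leydig fractions and polysome IPs was measured on 28 arrays. The deposited values are linear signal intensities per probe set, made by the authors with GCOS per the submitters' processing notes, which state no version. On 24 arrays these intensities had already been scaled to a trimmed mean of 500 (2% trimmed at each end), and 4 polysome columns had trimmed means of 129.97 (KO 1), 29.8 (KO 2), 168 (WT 1) and 54.5 (WT 2). Every array was rescaled to 500 and transformed to log2(signal + 16), which understates the change of dim genes. This rescaling and the level of 200 follow earlier work on these data, and the members, lists and tests were chosen with earlier results of these data known.

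Of 45101 probe sets, 34945 had 1 gene symbol, 932 several and 9160 none, and 64 controls were left out. Each of 18193 genes was read from its probe set of highest mean. 32 members had several probe sets. Their other probe sets differed in the same direction in 15 of 17 cases for polysome RNA and 24 of 24 for KO against WT round spermatids. Agreement was weaker in spermatocytes, with 15 of 24, or 11 of 13 for members that passed. For the difference of effects it was 13 of 22. Each comparison was fitted on its own groups with limma 3.58.1 (lmFit, eBayes) in R 4.3.3 with data.table (version 1.17.8), over the 9097 genes whose mean signal on its arrays was not below the median, with Benjamini-Hochberg adjustment at 0.05 over all of them. The precision is limited by the number of arrays. Differences are given ± SE. Tests were checked on simulated data, where the polysome comparison recovered 23 of 100 genes changed by 1 and 86 of 100 changed by 2 on the log2 scale. Computation and plots used Python 3.11.15, pandas 2.3.3, numpy 2.4.6, scipy 1.17.1 and matplotlib 3.10.9.

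In 4 comparisons arrays that share a number departed from their group means in the same way. Correlations of these departures across genes were 0.436, 0.668 and 0.665 for polysome pairs, 0.322, 0.28, 0.26 and 0.386 in spermatocytes, 0.247, 0.138 and 0.245 in round spermatids, and 0.206, 0.193 and 0.204 between KO round spermatids and KO spermatocytes. This pairing comes from the data, not from the labels. With 2 arrays a group the check gave 0.434 for both IP pairs and 0.0277 for both Leydig pairs, and these were not treated as paired. A fit that blocks on the number stands beside each result whose call it changes or whose count it moves by over 1.5 times.

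Members were named as those past the threshold with non-overlapping groups and the largest change in each direction (up to 10 for polysome RNA, 6 for stage, 5 for each cell type, 3 for the IP, the Leydig fraction and the difference of effects), or the 5 of smallest p (3 in those with 3) where fewer passed. The 8 and 6 brightest in WT round spermatids and WT spermatocytes and the 3 on each side of the level were added. 1700110K17Rik, on chromosome 9, was named after its values were seen. Alternatives tried were other normalizations, pseudocounts and filters, averaged probe sets, 1 fit of all arrays, the replicate block, averaged near-identical arrays, arrays left out and other membership levels.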

Additional observations from a re-analysis of the deposited data

Results flagged for a closer look

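In WT spermatocytes, array 2 read 1181 for 1700016C15Rik, apart from the other 3 arrays, of which the nearest read 1076. It was 1 of 40 sets of 4 arrays examined for such a gap, and chance sets about 1 in 20 apart. The KO effect differed between polysome RNA and round spermatids, by a test of the difference itself, in 15 members. Among those named, the difference was -2.03 for 1700042G07Rik, -1.89 for 1700027F06Rik and -1.67 for 1700009N14Rik, with a more negative effect in polysome RNA in each. With round spermatid arrays 1 and 2 averaged the count was 1, and the limma adjusted p was 0.069 for 1700027F06Rik and 0.0843 for 1700009N14Rik.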

How the results depend on the processing

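The 40 polysome falls ranged from 31 (without WT polysome 1) to 41 when an array was left out, with 0 rises throughout, were 36 with no filter and 27 without the arrays of conflicting description, and were 0 on the unscaled deposited values, where the 4 columns on another scale widen the spread. The replicate block gave 58 falls and 1 rise. Counts for KO round spermatids against KO spermatocytes stayed within 1.5 times of 96 and 31 in all alternatives run, and ranged from 90 to 100 and from 27 to 29 when an array was left out. In spermatocytes the rises were 3 with centred arrays, 3 with no filter, 2 in 1 fit of all arrays, 11 with the replicate block and 3 with near-identical arrays averaged, and the falls were 32 in 1 fit of all arrays; leaving out an array gave 5 to 7 rises and 74 to 79 falls. In round spermatids the rises were 16 with quantile normalization and 4 in 1 fit of all arrays, which gave 52 falls, and leaving out an array gave 7 to 11 rises and 79 to 92 falls. In the Leydig fraction the rises were 3 with centred arrays and 1 in 1 fit of all arrays, which gave 24 falls, and leaving out an array gave 6 to 10 and 109 to 112. For the IP, 1 fit of all arrays gave 18 up and 20 down, the replicate block 1 (1700024J04Rik, limma adjusted p = 0.00813) and 1 (1700037C18Rik, 0.0191), where the arrays share only a number, and leaving out an array 0 and 0. For the polysome effect minus the round spermatid effect, the negative calls were 31 with quantile normalization, 24 with centred arrays, 0 unscaled, 6 with no filter, 29 with the replicate block, 36 without the arrays of conflicting description, 1 with near-identical arrays averaged, and 7 to 19 when an array was left out. Its positive calls were 1 with quantile normalization, averaged probe sets or 1 fit of all arrays, 2 with the replicate block or without the conflicting arrays, and 0 to 2 when an array was left out. The members' median of this difference was -0.49 with quantile normalization (all genes -0.09) and -0.52 with centred arrays (-0.31). It was -0.54 without the conflicting arrays (-0.18) and -0.63 on the unscaled values (-0.50). The median WT difference of round spermatids minus spermatocytes was 1.58 with quantile normalization, 1.49 with centred arrays, and 1.57 to 1.69 when an array was left out. The sign turned for 1700012D14Rik in polysome RNA without the conflicting arrays (-0.12), on the unscaled values for 1700029P11Rik (-0.072), 1700037H04Rik (-0.040), 1700017B05Rik (-0.16) and 1700018L02Rik (-0.15), for 1700018L02Rik without WT polysome 1 (-0.056, up to 0.48 with another array left out), and with averaged probe sets for 1700017B05Rik in round spermatids (-0.047) and the Leydig fraction (-0.0036). For single members 1076 alternative values kept direction and call, 34 lost and 19 gained the call. Where no construction shows it, the cause was not tested. 49 members were too dim for a polysome test.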
